A study of Ogataea parapolymorpha with 2 samples.

Results

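The genes described here are the families through which a methylotrophic yeast oxidises methanol and builds the carbon into sugars, in the strain DL-1 of Ogataea parapolymorpha (Hansenula polymorpha in the study's title). They were chosen by a rule on the annotation, which takes every gene of the deposited count table that carries 1 of 6 identifiers of clusters of orthologous groups (COG): COG2303, COG0753, COG1062, COG0627, COG0021 or COG2376. This gave 9 of the 5325 protein-coding genes. The table pairs locus tags with COG identifiers and with no gene names, so each gene is called here by its locus tag and its family. The function of each COG is general knowledge. Several of these families are wider than methanol metabolism, and which member is the methanol enzyme is not given.

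One group held cells that had spent 2 h in 20 mM caffeine, and the other held untreated cells. Both came from a DL-1 culture that the labels list as leu-. It grew at 37 °C in YPD, a rich medium with glucose, and was divided at an optical density of 1.0. Caffeine is a purine analogue that stresses the yeast cell wall, whose integrity pathway is the study's subject. The harvest time of the untreated cells is not in the labels, and if it was before the 2 h, the drug cannot be told apart from time in culture. No methanol-grown sample was analysed here, so that levels describe cells in glucose medium.

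In methylotrophic yeasts, methanol is oxidised in the peroxisome by a flavin alcohol oxidase to formaldehyde and hydrogen peroxide, and catalase removes the peroxide. Formaldehyde then either binds glutathione and is oxidised in the cytosol, by a formaldehyde dehydrogenase, a hydrolase of S-formylglutathione and a formate dehydrogenase, or is joined to xylulose 5-phosphate by dihydroxyacetone synthase. Dihydroxyacetone kinase and enzymes of sugar phosphate rearrangement carry the product on. The methanol enzymes of this yeast are known for being repressed by glucose and strongly induced by methanol.

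The caffeine-treated library held 17789838 counted reads and the untreated library 19184978. With 1 library in each group no difference could be checked against replicates or tested. Levels between genes are given as RPKM, the authors' unit of reads corrected for gene length and library size. Changes are given as the log2 fold of caffeine-treated over untreated counts on counts scaled with TMM factors (trimmed mean of M values). Each carries an exact 95% interval, which covers counting error only and no variation between cultures or libraries. It may be too narrow even for counting error, because amplified reads lacking molecular identifiers do not each stand for a molecule. Library totals used in place of TMM add 0.22 to every log2 fold. In these bulk libraries fewer cells with a transcript and less transcript per cell cannot be told apart.

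In glucose medium the 9 genes spanned a wide range of levels. In the untreated library the highest, HPODL_04404 of the transketolase and dihydroxyacetone synthase family, stood 378-fold above the lowest, HPODL_04538 of the dihydroxyacetone kinase family. In each library 4 of the 9 lay above that library's median over all protein-coding genes and 5 below it. The medians were 64.3 RPKM with caffeine and 52.4 RPKM without it.

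The order of the 9 levels was the same in both libraries. HPODL_04404 came first, then the formaldehyde dehydrogenase type gene HPODL_02554, the formylglutathione hydrolase type gene HPODL_03324, catalase HPODL_04626, dihydroxyacetone kinase HPODL_01039, the alcohol oxidase group gene HPODL_03886, the transketolase-family genes HPODL_02162 and HPODL_04602, and last HPODL_04538. In the caffeine-treated library the counting intervals of 2 neighbouring pairs overlapped, those of HPODL_04626 with HPODL_01039 and of HPODL_03886 with HPODL_02162. In the untreated library no neighbouring pair overlapped.

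**Figure D1:**
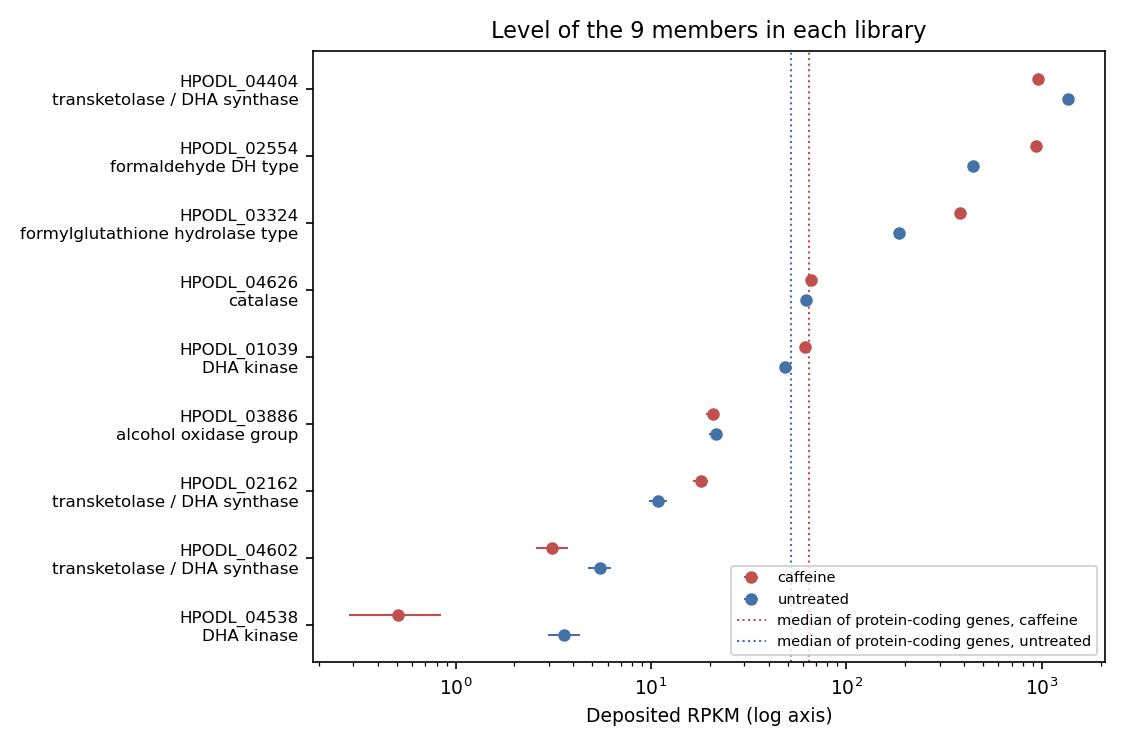
Deposited RPKM of the 9 genes in the caffeine-treated library (red) and the untreated library (blue) on a log axis, with bars for the 95% Poisson counting interval and dotted lines at the median of protein-coding genes. HPODL_04404 stands highest, at 958 RPKM with caffeine and 1362 RPKM without it, and HPODL_04538 lowest, at 0.51 and 3.60 RPKM.

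Between the libraries the families went different ways. Both genes of the formaldehyde oxidation families were higher in the caffeine-treated library, by 1.80- and 1.79-fold. The abundant transketolase-family gene was 1.65-fold lower. The alcohol oxidase group gene and catalase were 1.20- and 1.08-fold lower, values that library totals shrink or turn round. HPODL_04602 and HPODL_04538, both of very low level, were the ones more than 2-fold lower under TMM.

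Of the 9 genes, 8 reached 10 CPM, counts scaled to the library's size, in at least 1 library and were compared. No compared gene was at least 2-fold higher with caffeine, a level that 7.12% of the 4861 genes compared in all passed, and 1 was at least 2-fold lower, a level that 5.27% passed. With library totals 2 were at least 2-fold higher and 0 lower, where 11.6% and 3.60% of compared genes passed. With so few genes these counts do not set the families apart from the background. The median log2 fold was 0.01 over the 8 compared genes and 0.01 over the 4861. The 8 ranged from -1.02 to 0.85, and the interquartile range of all compared genes was -0.33 to 0.39.

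**Figure D2:**
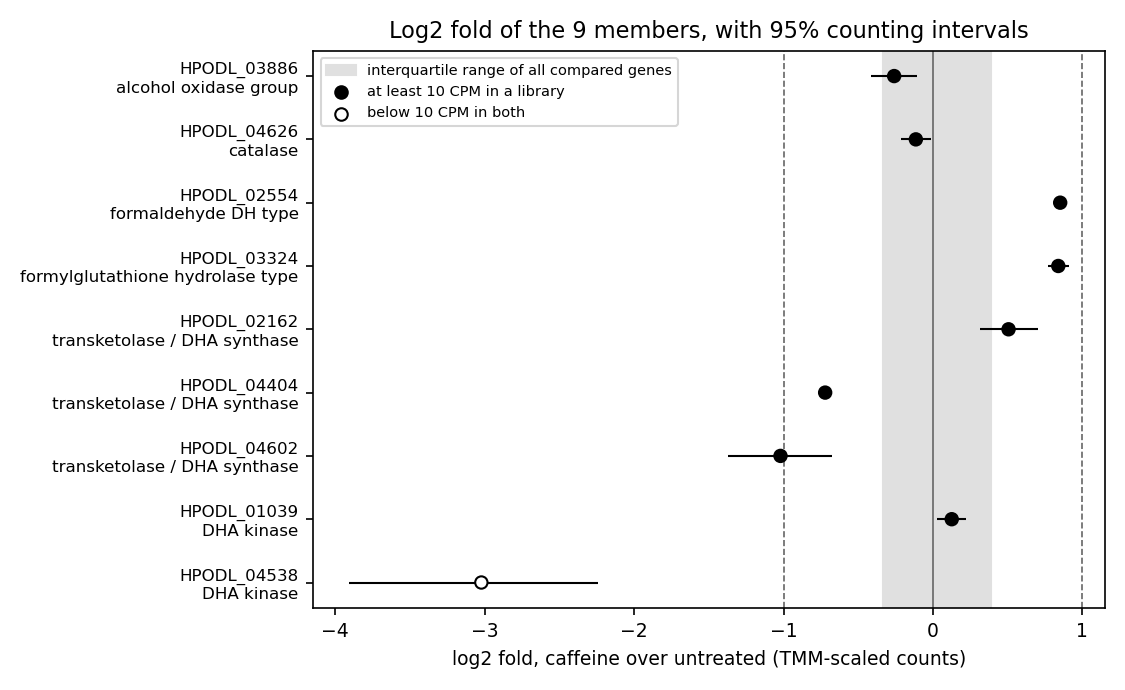
Log2 fold of each gene, caffeine-treated over untreated, with its exact 95% counting interval; the grey band is the interquartile range of all compared genes, dashed lines mark 2-fold and the open symbol is the gene below 10 CPM in both libraries. HPODL_02554 at 0.85, HPODL_03324 at 0.84 and HPODL_02162 at 0.51 lie to the right of the band, and HPODL_04404 at -0.72, HPODL_04602 at -1.02 and HPODL_04538 at -3.02 to its left.

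The first step of methanol use, its oxidation by a flavoprotein, was represented by 1 gene of COG2303. This group holds alcohol oxidases together with choline dehydrogenase type enzymes. HPODL_03886 is listed at 194387 to 196381, with no contig named, as a reading frame of 664 codons before the stop. It had 672 counts and 20.7 RPKM in the caffeine-treated library, against 746 counts and 21.4 RPKM in the untreated library. This level was below that of most genes, since 22.0% of protein-coding genes stood lower in the untreated library. The log2 fold was -0.26 (-0.41 to -0.11), or -0.04 with library totals, well within 2-fold.

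Catalase, the enzyme that splits the hydrogen peroxide made by peroxisomal oxidases, was also present as 1 gene. HPODL_04626 is listed at 173749 to 175272 and has 507 codons. Its counts were 1593 with caffeine and 1599 without it, and its levels 66.2 and 61.9 RPKM. This gave a log2 fold of -0.11 (-0.22 to -0.01). Its sign depended on the scaling and became 0.10 with library totals, so that no direction can be given. In the untreated library it stood close to the middle of all genes, with 55.4% of them lower.

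Formaldehyde oxidation was the step at which both genes stood higher with caffeine. HPODL_02554, of the formaldehyde dehydrogenase type (COG1062, which also holds other alcohol dehydrogenases), is listed at 287298 to 288515. It had 17324 counts and 931 RPKM in the caffeine-treated library, against 8902 counts and 446 RPKM in the untreated library. Already in glucose medium without the drug this was an abundant transcript, ranked 377 of 5325. With caffeine it ranked 225. The log2 fold was 0.85 (0.81 to 0.89), a 1.80-fold higher level.

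HPODL_03324, of the type that hydrolyses S-formylglutathione to formate and glutathione (COG0627), is listed at 537185 to 538066. It had 4834 counts and 383 RPKM with caffeine, against 2506 counts and 185 RPKM without it. Its rank was 463 in the caffeine-treated library and 950 in the untreated library. It stood 1.79-fold higher with caffeine, at a log2 fold of 0.84 (0.77 to 0.91).

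These 2 families catalyse consecutive reactions. The folds of their genes differed by 0.01 on the log2 scale, with a normal-approximation counting interval of -0.07 to 0.09. How often other pairs of genes differ this little was not tested. With library totals both passed 2-fold, at log2 folds of 1.07 and 1.06. Under TMM 90.1% of compared genes had a lower fold than HPODL_02554 and 89.9% a lower one than HPODL_03324.

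Folds varied with level over the whole table. Among the 486 genes of the top decile by mean scaled CPM, which holds HPODL_02554 and HPODL_04404, the median log2 fold was -0.27, with an interquartile range from -0.58 to 0.07. In the lowest decile, with 487 genes, it was 0.25, with an interquartile range from -0.18 to 0.82. HPODL_02554 stood above the interquartile range of that decile and HPODL_04404 below it. HPODL_03324 stood above the interquartile range of its own decile, which ran from -0.34 to 0.19. The part that this trend plays in the folds of single genes was not tested.

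**Figure D3:**
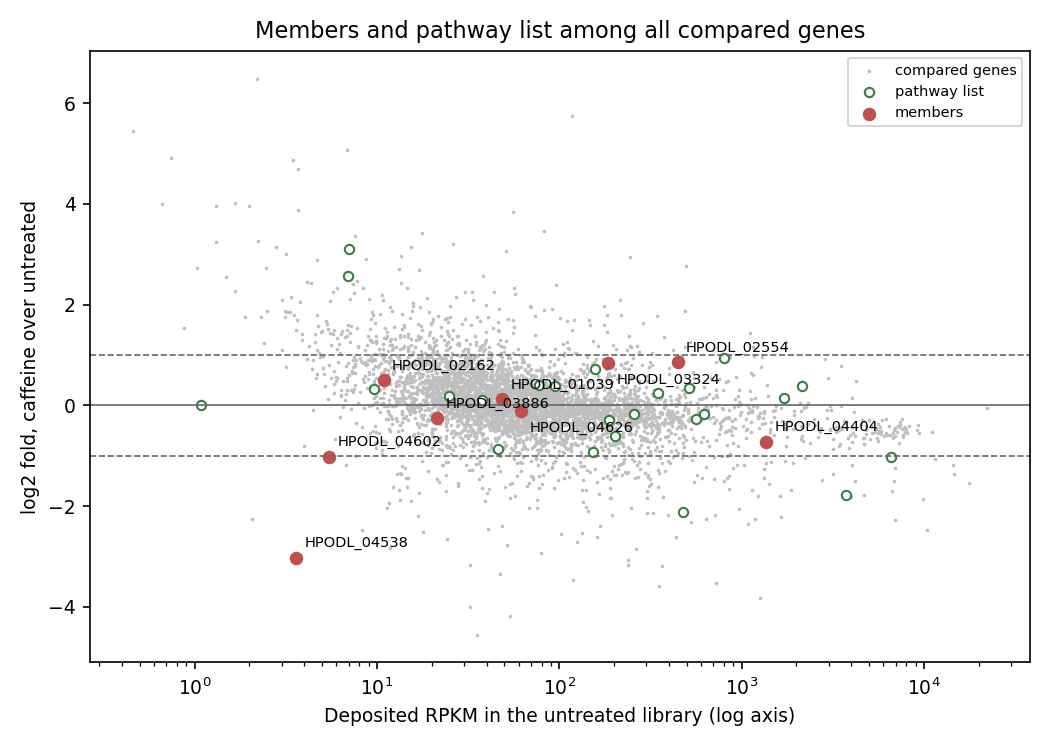
Log2 fold, caffeine-treated over untreated, against the deposited RPKM of the untreated library (log axis) for all 4861 compared genes (grey), the 24 genes of related pathway families (green rings) and the 9 genes described here (red); dashed lines mark 2-fold. The cloud slopes down from left to right, and HPODL_02554 and HPODL_03324 lie in its upper part at high level, with other genes above them. The untreated library enters both axes, so that its counting error alone tilts the cloud downward.

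The transketolase family (COG0021) holds the transketolase of the pentose phosphate pathway and dihydroxyacetone synthase, its relative that takes up formaldehyde. Which of the 3 genes is which is not annotated. HPODL_04404, listed at 1120398 to 1122428 with 676 codons, dominated the family. It gave 97.9% of the family's 32360 counts with caffeine (exact Clopper-Pearson interval 97.8% to 98.1%) and 98.8% of 49020 without it (98.7% to 98.9%). Its counts were 31692 in the caffeine-treated library, against 48450 in the untreated library, and its levels 958 and 1362 RPKM. The log2 fold was -0.72 (-0.74 to -0.70), a 1.65-fold lower level, or -0.50 with library totals.

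HPODL_02162, listed at 588916 to 590838 with 640 codons, differed the other way at a far lower level. It had 559 counts and 17.9 RPKM with caffeine, against 365 counts and 10.9 RPKM without it. This gave a log2 fold of 0.51 (0.31 to 0.70). It differed from that of HPODL_04404 by 1.23, with a counting interval of 1.04 to 1.42. Its share of the family's counts was 1.73% with caffeine (1.59% to 1.88%) and 0.745% without it (0.670% to 0.825%).

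HPODL_04602, the longest of the 3 with 710 codons, is listed at 133463 to 135595. It was among the least abundant genes, with 109 counts and 3.13 RPKM in the caffeine-treated library, against 205 counts and 5.46 RPKM in the untreated library. In the untreated library 5.86% of protein-coding genes stood lower. The log2 fold was -1.02 (-1.37 to -0.68). HPODL_04602 entered the comparison only through the untreated library, at 10.7 CPM of library reads against 6.13 with caffeine. It was the 1 compared gene past 2-fold, its log2 fold lay at the limit, and the interval reached to both sides of that limit. With library totals the log2 fold was -0.80, and with 5 CPM added to both libraries -0.63. The count of genes 2-fold lower became 0 under either setting. HPODL_04404 and HPODL_04602 differed in fold by 0.30, an amount not detectable at this depth, since the interval ran from -0.04 to 0.63.

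Dihydroxyacetone kinase (COG2376), which phosphorylates dihydroxyacetone for its entry into sugar phosphates and also serves glycerol use in yeasts, was present as 2 genes. HPODL_01039, listed at 267460 to 269289 with 609 codons, had 1818 counts and 61.6 RPKM with caffeine, against 1545 counts and 48.7 RPKM without it. This gave a log2 fold of 0.13 (0.03 to 0.22), or 0.34 with library totals. Close to the middle of all genes in level, it carried most of the family's counts, 99.2% of 1833 with caffeine (98.7% to 99.5%) and 93.2% of 1658 without it (91.9% to 94.4%).

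HPODL_04538, listed at 31456 to 33267 with 603 codons, had 15 counts and 0.51 RPKM in the caffeine-treated library, against 113 counts and 3.60 RPKM in the untreated library. At 0.843 and 5.89 CPM of library reads it lay under 10 CPM in both and was not compared. Its log2 fold was -3.02 (-3.91 to -2.24), 8.13-fold lower with caffeine. Of the 464 protein-coding genes below 10 CPM in both libraries, 4.31% were at least 4-fold lower. With 5 CPM added to both libraries the log2 fold became -0.97. The kinase genes differed in fold by 3.15, with a normal-approximation counting interval of 2.36 to 3.93. This size rests on the 15 counts of HPODL_04538 in the caffeine-treated library. With 5 CPM added HPODL_01039 stood at 0.12 against that -0.97, so the size depended on the setting.

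Summed over the 9 genes, counts made up 0.329% of the caffeine-treated library (0.327% to 0.332%) and 0.336% of the untreated library (0.333% to 0.338%). Those are shares of library totals. On the TMM scale used for the folds, the sum was 3055 CPM with caffeine and 3622 CPM without it, a log2 ratio of -0.25 (-0.26 to -0.23). The make-up of that sum differed between the libraries. HPODL_04404 gave 54.1% of it with caffeine and 75.2% without it. The share of HPODL_02554 was 29.6% with caffeine and 13.8% without it, and that of HPODL_03324 was 8.25% and 3.89%. The alcohol oxidase group gene gave 1.15% and 1.16%. The shares within that sum follow both the level and the length of each gene and need no scaling between libraries.

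**Figure D4:**
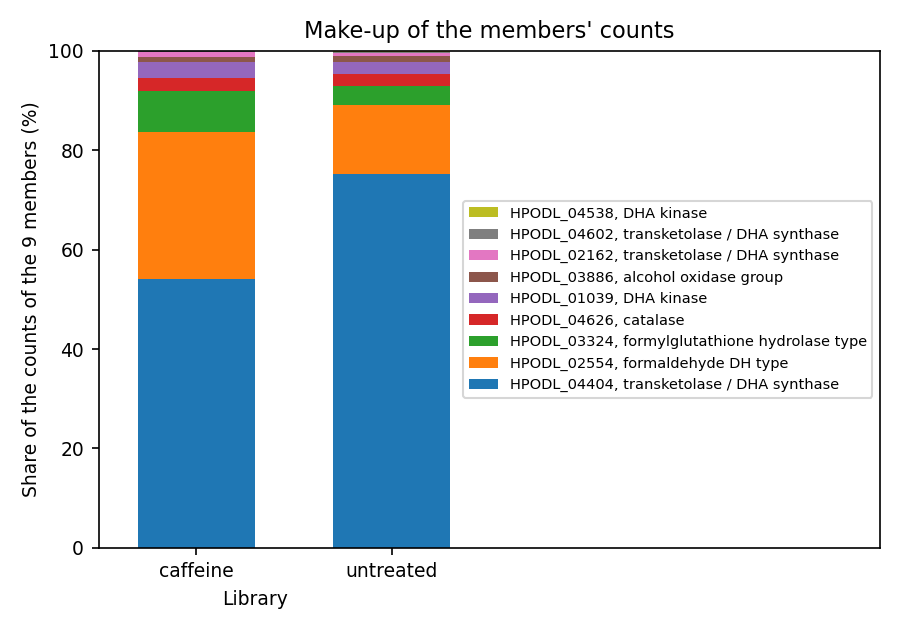
Share of the counts of the 9 genes, in percent, taken by each gene in the caffeine-treated (left) and the untreated library (right); DH stands for dehydrogenase and DHA for dihydroxyacetone. HPODL_04404 takes 54.1% with caffeine and 75.2% without it, and HPODL_02554 takes 29.6% and 13.8%.

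Genes of the pathway and of families related to it were taken from 13 further COG families. Of these families 12 held a gene, 24 genes in all, with 23 compared. Of these 23, 2 were at least 2-fold higher with caffeine and 3 at least 2-fold lower, or 3 and 2 with library totals. Over all compared genes 7.12% and 5.27% passed under TMM, and 11.6% and 3.60% with library totals. With 23 genes the counts do not set the list apart from these shares. Under TMM the 2 higher genes and 1 of the 3 lower were of COG1304, a family with no step in the pathway as described above. Those 2 higher genes reached 10 CPM only in the caffeine-treated library. The library in which they stood higher was thus also the one that brought them into the comparison. The median log2 fold of the list was 0.15, or 0.37 with library totals, against 0.01 and 0.23 over all compared genes. The most abundant gene of each family and the extremes of the list are named here, and genes named after their values were seen are marked.

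On the side of formaldehyde oxidation, the formate dehydrogenase type family (COG1052), which also holds D-lactate and glycerate dehydrogenase types, had 4 genes, with log2 folds of 0.19 to 0.72 under TMM. The most abundant of them, HPODL_03463, had 302 RPKM with caffeine and 158 RPKM without it. Its log2 fold was 0.72 (0.65 to 0.79). Together with HPODL_02554 and HPODL_03324, all 6 genes of the families placed under this role lay above 0 under TMM and library totals. Their median was 0.56 under TMM, where none passed 2-fold, and 0.78 with library totals, where 2 did. Over all compared genes 51.1% lay above 0 under TMM and 68.1% with library totals. Which of the 4, if any, is the formate dehydrogenase is not annotated, so that the 6 genes cannot be read as 1 route.

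In peroxide breakdown the 7 genes of peroxiredoxin and glutathione peroxidase types had log2 folds of -0.61 to 0.94, none past 2-fold under TMM and 1 higher, at 1.16, with library totals. The most abundant peroxiredoxin type genes were HPODL_02878 (COG0450) at 0.15 (0.12 to 0.18) and HPODL_03659 (COG0678) at 0.34 (0.28 to 0.40). The glutathione peroxidase gene HPODL_03940 (COG0386), whose enzyme reduces peroxides with glutathione, stood at 0.24 (0.15 to 0.32). Catalase, at -0.11, lay inside the range of these genes.

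Of the compared pathway genes on the side of assimilation, 2 enzymes shared with glycolysis lay lowest. Triose phosphate isomerase HPODL_03187 (COG0149) had 1242 RPKM with caffeine and 3718 RPKM without it, a log2 fold of -1.79 (-1.82 to -1.76). Fructose bisphosphate aldolase HPODL_03669 (COG0191) had 3739 and 6597 RPKM, a log2 fold of -1.03 (-1.04 to -1.02), or -0.81 with library totals. Fructose bisphosphatase HPODL_03321 (COG0158), which acts in the direction of sugar synthesis, stood at -0.26 (-0.31 to -0.22), or -0.04 with library totals.

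The enzymes of sugar phosphate rearrangement, which regenerate xylulose 5-phosphate, were mixed. The most abundant transaldolase gene HPODL_02007 (COG0176) stood at 0.39 (0.37 to 0.41), opposite to HPODL_04404, with 3250 RPKM with caffeine and 2145 RPKM without it. HPODL_02008 of the same family, at a far lower level, stood at -0.87 (-1.04 to -0.69), in the direction of HPODL_04404. HPODL_02415 stood at 0.31 (0.01 to 0.62) and reached 10 CPM only in the caffeine-treated library. HPODL_02008 and HPODL_02415 are named after their values were seen. Ribose 5-phosphate isomerase HPODL_02541 (COG0120) stood at -0.92 (-1.04 to -0.80). Ribulose 5-phosphate epimerase HPODL_03355 (COG0036) was at -0.17 (-0.25 to -0.09) and the xylulokinase type gene HPODL_01145 (COG1070) at -0.28 (-0.34 to -0.23). With library totals the epimerase turned to 0.04 and the xylulokinase type gene stood at -0.07. Several families placed under assimilation also serve other pathways, so their values do not describe formaldehyde assimilation as such. Over their 13 compared genes, in both lists, the median was -0.28, with 9 below 0, of which 3 passed 2-fold. Those 3 were HPODL_03187 and HPODL_03669, shared with glycolysis, and HPODL_04602, of very low level. Under library totals the median was -0.07, with 8 below 0 and 1 past 2-fold. Over all compared genes 48.9% lay below 0 under TMM and 31.9% with library totals, and 5.27% and 3.60% passed 2-fold in that direction.

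Genes of the lactate dehydrogenase or glycolate oxidase type (COG1304) held the extremes of the list. Of 3 genes, HPODL_00048 was the most abundant without caffeine, at 128 RPKM with the drug and 480 RPKM without it. It stood lowest at -2.12 (-2.18 to -2.07) and carries a second identifier, COG5274. HPODL_03418 stood highest at 3.11 (2.87 to 3.36), with 1434 counts with caffeine and 154 without it. The third gene, HPODL_04464, named after its value was seen, was also higher, at 2.56 (2.34 to 2.80), with 1173 counts with caffeine and 184 without it. Without caffeine HPODL_03418 and HPODL_04464 lay at 8.03 and 9.59 CPM of library reads. They entered the comparison only through the caffeine-treated library. Whether any of the 3 genes encodes an oxidase, or an enzyme that acts in peroxisomes, is not annotated.

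**Figure D5:**
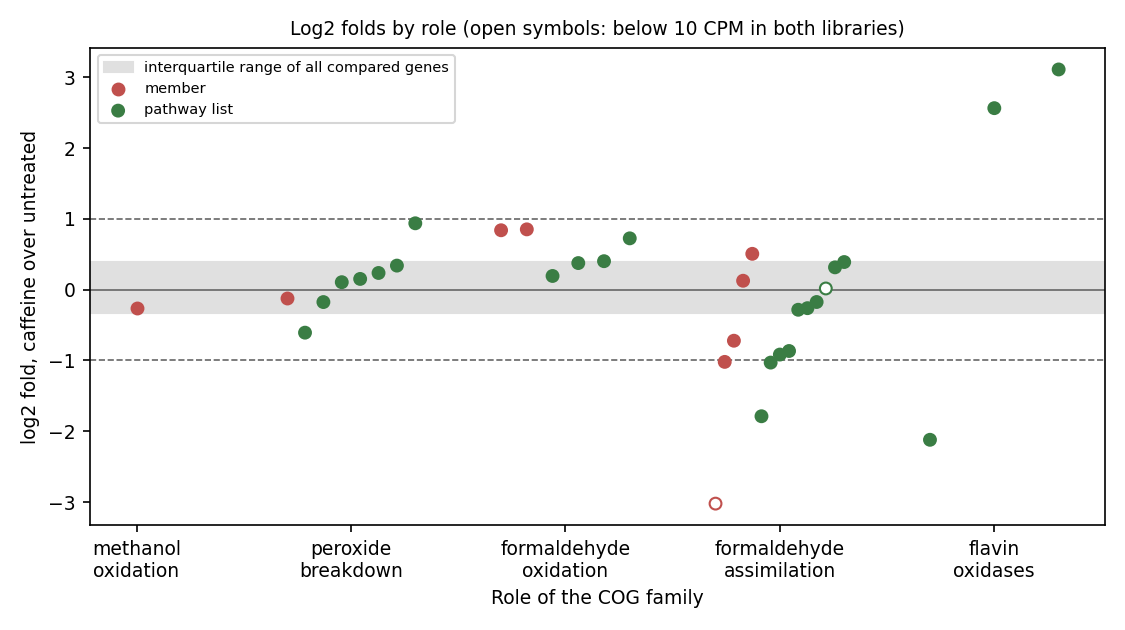
Log2 fold, caffeine-treated over untreated, of the 9 genes (red) and the 24 genes of related pathway families (green), by the role of their family. The grey band is the interquartile range of all compared genes, dashed lines mark 2-fold and open symbols are genes below 10 CPM in both libraries. All 6 genes of families placed under formaldehyde oxidation lie above 0. Of the 13 compared genes of families placed under formaldehyde assimilation, 9 lie below 0, or 8 with library totals. Roles are those of families, several of which also serve other pathways, and the function of single genes is not annotated. Of all compared genes 51.1% lie above 0 and 48.9% below, or 68.1% and 31.9% with library totals.

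By the listed coordinates, none of the 9 genes overlapped a neighbour and no 2 of them were neighbours in the genome. Gaps to the next feature ran from 18 to 732 bases. The table lists every feature on the plus strand, and whether reads were counted by strand is not given in the sources used here, so that reads from a closely adjoining gene cannot be told apart at the gene ends. How reads shared by similar genes within the transketolase and kinase families were counted is likewise not given.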

How the data were processed

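RNA-seq of 2 libraries was used, 1 caffeine-treated and 1 untreated. Per the labels' protocols, RNA came from hot phenol extraction and stranded mRNA libraries were read as pairs of 100 bases. Bowtie2 served as a tool, per the submitters' processing notes. The sources used here give no version of it, counting tool, build or annotation. The authors deposited raw read counts per gene and RPKM values. The deposited RLE and TMM tables hold a scaled signal, in which all 5408 values per library equalled the count times 1 constant within 0.0051 plus 1e-05 of the count.

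The 83 RNA features, with 0 counts, were left out. Gene type and neighbours came from the RefSeq table of assembly Hansenula_2, whose locus tags and coordinates equalled the files' for all 5408 features. TMM factors were computed on the whole table with edgeR 4.0.16 in R 4.3.3. Genes with at least 10 CPM of library reads in either library were compared. The rule for counting a gene was a difference of at least 2-fold, without a test. Intervals of folds and shares are exact 95% Clopper-Pearson intervals, and those of RPKM are Poisson. Intervals of differences between folds are normal approximations. None of the 9 genes had a count of 0. The calculation was checked on simulated Poisson counts with known folds, which hold no variation between libraries and so cannot speak to it. Alternatives were library totals, RLE factors, 5 CPM added, no filter, each family left out; the authors' TMM and RPKM values, and library totals for the pathway list, were chosen as alternatives after seeing the data. All 9 genes are named. Of the pathway list, the gene with the highest untreated level in each family and the highest and lowest fold were to be named. Others are marked where they appear. The genes and lists were chosen with earlier results of these data known. The grouping of genes by role was not among the planned results. A search for targeting signals and a comparison of protein sequences were planned and not run, since no protein sequences were used here.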

Additional observations from a re-analysis of the deposited data

How the results depend on the processing

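No paired analysis was possible because each group has 1 library. With RLE factors and with the authors' deposited TMM table, all 9 log2 folds stayed within their counting intervals. With library totals 7 of 9 did not, and the sign differed for 1, catalase. Genes at least 2-fold higher then numbered 564 in place of 346 over the table, of the 8 compared genes 2 were 2-fold higher and 0 lower, and medians became 0.22 (these 8), 0.23 (all genes) and 0.37 (pathway list). The ratio of deposited RPKM values, which carries no composition factor, gave 2 higher, 0 lower and a median of 0.22. Adding 5 CPM left 0 genes 2-fold lower. Without a filter 2 were lower and the median was -0.11. Leaving out COG0021 removed the gene past 2-fold, giving 0. The median became 0.13 without COG0021, COG0753 or COG2303 and -0.11 without COG0627, COG1062 or COG2376, since with so few genes it steps between neighbouring values. Dividing counts by listed lengths gave untreated levels lower by a factor of 1.09 to 1.25 and the same order. Depth limits HPODL_04538 and HPODL_04602 most.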
